A study of Drosophila melanogaster with 2 samples.

Results

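Divergent promoters are places where 2 genes start back to back and are read away from each other. The members described here were the summits of Giant-GFP peaks that lay at such promoters. A summit (the position of highest signal in a peak) was kept when it lay at most 500 bp from a protein-coding transcription start site and when, among the start sites in that range, a minus-strand start site lay at the lower coordinate and a plus-strand start site of another gene lay at most 500 bp above it. Of the 1861 peaks in the authors' pooled list, 1825 lay on the main chromosome arms, 776 of these had their summit at a promoter, and 280 met the divergent rule. The other 496 promoter summits and the 1049 summits outside promoters served for comparison. The peaks came from chromatin immunoprecipitation with an antibody against GFP, sequenced from whole embryos of Drosophila melanogaster aged 0 to 18 h. The strain carries an insertion that expresses a gt-eGFP fusion protein, and chromatin was sheared by sonication to between 200 and 800 bp. There was 1 group with 2 biological replicates, no embryos without the fusion were analysed here, and whole embryos mix all cell types, so a value cannot be tied to one tissue or hour. The files hold no read counts, the depth is unknown, and the intervals given below cover only the sampling of peaks, genes or gene pairs.

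Giant is a basic leucine zipper repressor, the product of a gap gene, and it helps to divide the early embryo along the anterior-posterior axis. Head-to-head gene pairs are common in the compact fly genome, and many of them encode proteins that nearly every cell uses. The short sequence between such genes serves as a promoter in both directions, and it often holds the DNA replication-related element (DRE, TATCGATA), which is bound by the transcription factor Dref, or the overlapping CGATA bound by the boundary protein BEAF-32.

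The sequence between the 2 start sites is shown for 6 members, taken from the Release 6 (dm6) RefSeq genome, 5' to 3' on the plus strand. The minus-strand gene therefore starts just left of each line and the plus-strand gene just right of it, and no annotated exon lies inside. The first 3 are the strongest members, and the others are the strongest printable members with TATCGATA, with CAGTGTA and with AACAGCTG. Capitals mark exact matches, on either strand, to the DRE palindrome TATCGATA, to the TATA-box letters TATAAA, to the AT-rich element GTATTTT, to the word CAGTGTA, to the extended E-box AACAGCTG or to the C-rich element CATCCCTA, the motifs of 6 or more letters that were more frequent at the summits than in flanking sequence and were sought without mismatch. The capitals cover the whole stretch, also letters more than 100 bp from the summit, which lie outside the windows tested below. A match is a run of letters, not a measured binding site.
CG7601/CIA30 (chr3R:29736746-29736964): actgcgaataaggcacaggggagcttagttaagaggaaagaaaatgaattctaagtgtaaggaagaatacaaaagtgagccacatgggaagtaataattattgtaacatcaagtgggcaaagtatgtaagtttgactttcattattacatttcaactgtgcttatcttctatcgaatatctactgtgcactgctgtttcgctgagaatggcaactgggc
Tcs5/CHMP2B (chr3L:5139396-5139618): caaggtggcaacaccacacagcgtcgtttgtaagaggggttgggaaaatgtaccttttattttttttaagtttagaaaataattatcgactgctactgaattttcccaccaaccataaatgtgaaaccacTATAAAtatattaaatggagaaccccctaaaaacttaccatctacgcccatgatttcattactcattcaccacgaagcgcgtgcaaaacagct
Art3/mRpS10 (chr3R:15229409-15229664): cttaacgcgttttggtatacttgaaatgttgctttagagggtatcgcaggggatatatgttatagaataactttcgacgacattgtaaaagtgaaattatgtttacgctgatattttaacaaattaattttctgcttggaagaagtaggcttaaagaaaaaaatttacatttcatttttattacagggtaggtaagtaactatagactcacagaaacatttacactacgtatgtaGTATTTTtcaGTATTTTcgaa
Atat/Shc (chr3L:9426759-9427009): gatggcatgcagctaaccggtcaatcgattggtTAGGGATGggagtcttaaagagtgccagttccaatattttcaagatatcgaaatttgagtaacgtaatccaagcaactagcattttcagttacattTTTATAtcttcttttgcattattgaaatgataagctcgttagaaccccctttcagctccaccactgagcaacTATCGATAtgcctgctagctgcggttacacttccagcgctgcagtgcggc
alphaCOP/CG13919 (chr3L:1645200-1645466): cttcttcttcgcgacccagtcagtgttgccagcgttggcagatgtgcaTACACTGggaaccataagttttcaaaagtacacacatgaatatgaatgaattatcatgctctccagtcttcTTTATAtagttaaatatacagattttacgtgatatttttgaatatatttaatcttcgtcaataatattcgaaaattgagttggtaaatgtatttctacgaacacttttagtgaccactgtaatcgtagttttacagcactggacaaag
CG10147/Bulli (chr3L:6488425-6488680): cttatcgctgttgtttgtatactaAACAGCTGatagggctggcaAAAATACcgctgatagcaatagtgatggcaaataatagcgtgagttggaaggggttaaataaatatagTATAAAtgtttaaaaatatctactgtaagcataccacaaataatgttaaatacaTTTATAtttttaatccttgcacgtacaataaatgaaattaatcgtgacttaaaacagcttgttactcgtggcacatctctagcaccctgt
The stretch between CG7601 and CIA30 held no such match, and the one between Atat and Shc held 3, TATCGATA, TATAAA and CATCCCTA.

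The strongest member lay between CG7601 and CIA30, a complex I assembly factor gene. The peak on 3R from 29736719 to 29736982 had a pooled signal of 789, with 373 in replicate 1 and 409 in replicate 2. The signal is the authors' peak value, on a scale that the labels do not state, so it was compared only within a list. The peak between Tcs5, a tRNA-modifying kinase gene, and CHMP2B, a gene of the endosomal sorting machinery, had a pooled signal of 788, with 410 and 381 in replicates 1 and 2. The peak between Art3, an arginine methyltransferase gene, and mRpS10, a mitochondrial ribosomal protein gene, had 766, with 352 and 413. These 3 members ranked 7, 8 and 9 of the 1825 main-arm summits. At rank 10 was the summit between Chro, which encodes the chromodomain protein Chromator, and Ssl1, which encodes a subunit of the transcription factor TFIIH. Its pooled signal was 695, with 292 and 411.

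The summit at mRpS23/CenG1A had a pooled signal of 661, with 303 in replicate 1 and 360 in replicate 2. The summit at mRpL23/CG9004 had 568. Atat, an alpha-tubulin acetyltransferase gene, and Shc, an adaptor protein gene, shared one of 560. CG3437/CG3552 followed with 515, Pex11ab/CG8320 with 513, CG13390/CG17294 with 484 and CG1275/Elp5, with a subunit of the Elongator complex, with 453. The last 8 of the strongest 20 members ran from 423 down to 373. They lay at fws/Lamtor3, Reps/l(2)gd1, Pdrg1/Pal1, Fbw5/CG9147, brm/Arl1, Mppe/pds5, Mkk4/SLIRP2 and tank/CG12194. Among these genes brm encodes the ATPase of the fly SWI/SNF chromatin remodeller, pds5 a cohesin regulator and Mkk4 a stress-pathway kinase. All 20 overlapped a thresholded peak of both replicates, as did all 60 main-arm peaks with a signal of 373 or more, so this count says nothing particular to the members.

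Over all members the overlap with both replicates was less complete. A thresholded peak of both replicates was overlapped by 155 of 280 members, or 55.4% (95% Wilson interval 49.5 to 61.1), beside 41.2% of all main-arm peaks and 48.8% of the other promoter peaks. The difference from other promoter peaks was 6.57 percentage points with an interval of -0.753 to 13.8, which includes 0. Replicate 1 alone was overlapped by 51 members (18.2%, beside 17.6% of all main-arm peaks) and replicate 2 alone by 31 (11.1%, beside 15.1%). Neither was overlapped by 43 (15.4%), beside 26.1% of all main-arm peaks and 17.9% of the other promoter peaks. The conservative list of the series held 238 members (85.0%), and it held 84.7% of the other promoter peaks and 78.1% of all main-arm peaks. Across 279 members with a region in both replicates' ranked lists, Spearman's rho between replicate 1 and replicate 2 signal was 0.73. It was 0.60 across 491 other promoter peaks and 0.53 across 1031 peaks outside promoters. These correlations describe peaks that share a library within each replicate, and no test was made.

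**Figure D1:**
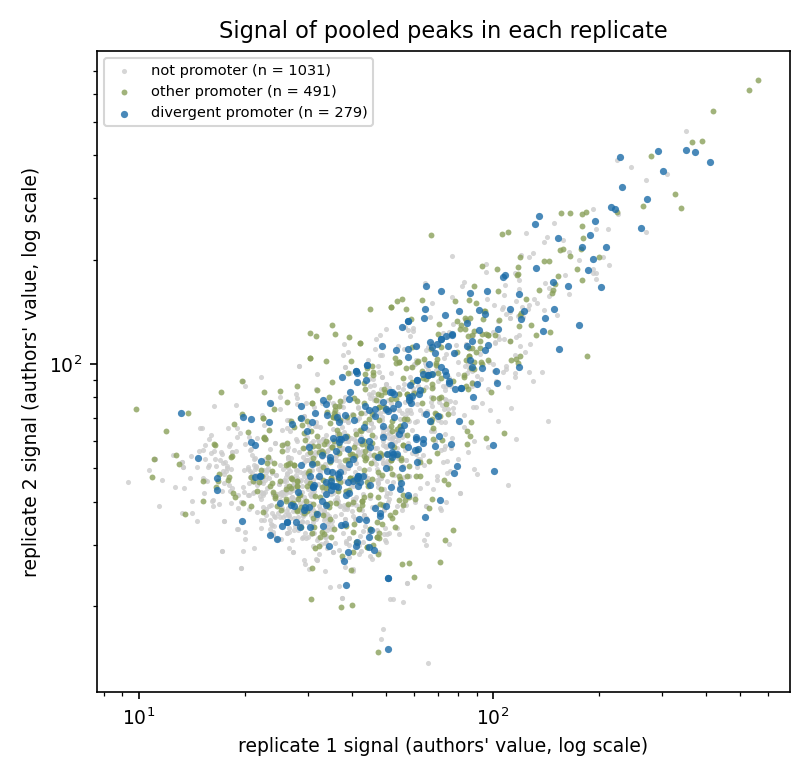
Signal of each pooled peak in replicate 1 (horizontal) and replicate 2 (vertical), both the authors' values on log axes, for divergent promoter, other promoter and non-promoter peaks. The 279 divergent promoter points lie within the cloud of the others and reach 410 in replicate 1 and 413 in replicate 2.

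Member signals spanned most of the range of the main-arm list, whose values ran from 2.11 to 1211. The 6 strongest summits of that list were not members. The members' median pooled signal was 112 (exact 95% interval 106 to 124; lowest 2.97, highest 789), beside 102 (96.1 to 108) for other promoter summits and 86.7 (83.5 to 89.4) for summits outside promoters. In the replicates' ranked lists the members' median was 50.9 in replicate 1 and 68.4 in replicate 2, on scales that are not comparable. The strongest 456 main-arm summits held 99 members (21.7%) and the weakest 457 held 41 (8.97%). Among promoter summits alone the divergent share was 38.4%, 40.1%, 32.6% and 30.4% in 4 rank classes of that size from the strongest to the weakest, with overlapping intervals. The strongest 20 main-arm summits included 7 members and the strongest 100 included 25.

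Giant-GFP summits were dense at divergent promoters and densest between the start sites. Sequence in which a summit would meet the rule covered 1.44 Mb and held 195 summits per Mb, and other promoter sequence held 35.7 per Mb over 13.9 Mb. The ratio was 5.45 (exact conditional 95% interval 4.69 to 6.33). This value depends on how the rule is drawn and ran from 3.36 to 7.12 over the alternatives tried. The stretches between start sites made up 36.9% of the divergent sequence and held 251 of the 280 summits (89.6%, 85.5 to 92.7), which is 473 per Mb. The 250 bp upstream of start sites outside divergent sequence is a closer match to that stretch, and it held 87.8 per Mb, for a ratio of 5.39 (4.55 to 6.38). This upstream comparison was chosen after other values were seen.

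Most summits lay between the start sites of their pair. Where several pairs of start sites met the rule, each summit was assigned the one whose midpoint lay nearest to it, so distances to the midpoint are short partly by construction. The distance between the start sites had a median of 278 bp (6 to 498), and 208 of the 280 members (74.3%) lay in pairs 201 to 400 bp apart. The absolute distance from summit to midpoint had a median of 43.0 bp (33.0 to 52.5), and 152 members (54.3%) lay at most 50 bp from the midpoint. With start sites chosen without the summit, as the closest pair of the gene pair, the median was 63.0 bp (55.5 to 73.5), 41.1% of members lay at most 50 bp away and 204 (72.9%, 67.4 to 77.7) lay between the start sites. With the widest eligible pair these values were 53.25 bp (46.0 to 62.5), 47.5% and 247 (88.2%, 83.9 to 91.5). Both choices were added after the values were seen. For the assigned pair, the summit was nearer the minus-strand gene in 135 members and nearer the plus-strand gene in 144. It lay 134 bp upstream of the minus-strand start site and 128 bp upstream of the plus-strand start site at the median. Other promoter summits lay upstream of their nearest start site in 83.5% of cases. Relative to the nearest start site, with negative values upstream, their median position was -158 bp (-172 to -145). On that measure the members' median was -76.5 bp (-87 to -68). The 134 and 128 bp above are distances to the assigned start sites and are not comparable with these medians. Outside the start sites of their own pair lay 11 members on the minus-strand side and 20 on the plus-strand side. Among the strongest 20 these were 3: Pex11ab/CG8320, Fbw5/CG9147 and tank/CG12194. The last lay farthest from its midpoint, at -307 bp.

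**Figure D2:**
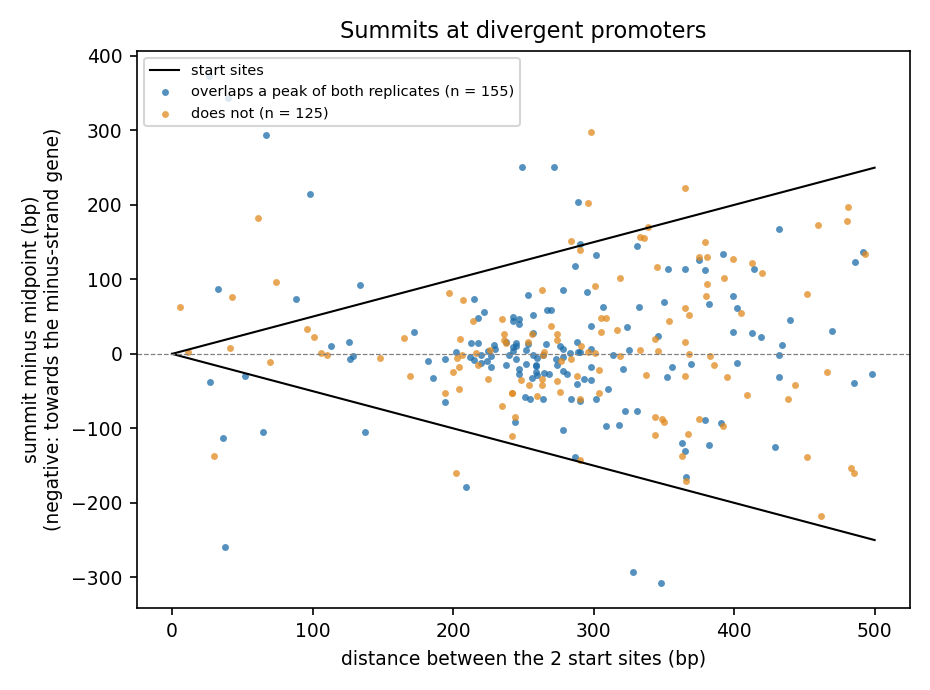
Position of each of the 280 summits relative to the midpoint between the start sites (vertical, bp, negative towards the minus-strand gene) against the distance between the start sites (horizontal, bp). Solid lines mark the start sites, and colour marks members that overlap a peak of both replicates (155) or not (125). Each summit is drawn with the start sites whose midpoint lay nearest to it; 152 points lie at most 50 bp from that midpoint (54.3%, against 41.1% with the closest start sites of the gene pair).

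Most divergent pairs in the genome had no summit. Of 1995 protein-coding gene pairs with start sites at most 500 bp apart, 298 (14.9%, 13.4 to 16.6) had a pooled summit that met the rule for them. Several pairs can share 1 summit, and overlapping pairs merged to 1884 loci, of which 268 (14.2%) held a summit. Over all protein-coding genes 7.49% had a summit within 500 bp of a start site, and over the 10130 genes in no divergent pair 4.41% did. The difference of 10.5 percentage points between divergent pairs and those genes had an interval of 8.97 to 12.2. A pair has more start sites than a gene. Counted per gene, 597 of 3815 genes in a divergent pair (15.6%) had a summit. This is not like-for-like either, because 1 summit that meets the rule counts for both genes of its pair.

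Occupancy varied with the distance between start sites. A summit had to lie at most 500 bp from both start sites, so wider pairs had a shorter eligible stretch. The shares were not adjusted for this length. Pairs 201 to 300 bp apart held a summit in 117 of 542 cases (21.6%, 18.3 to 25.2), and pairs 301 to 400 bp apart in 74 of 400 (18.5%, 15.0 to 22.6). The share was 11.2% (8.54 to 14.5) at 1 to 100 bp, 10.1% (7.37 to 13.6) at 101 to 200 bp and 8.61% (5.81 to 12.6) at 401 to 500 bp. The intervals of the 2 middle classes lie above those of the class just below and the class above. In members assigned to start sites 1 to 100 bp apart the summit lay between the start sites in 4 of 20 cases, and in the wider classes it did in at least 90.0% of cases. The narrowest assigned pair was CG3032/CG4593 at 6 bp and the widest Pax/Alp12, with the gene for the adhesion adaptor paxillin, at 498 bp. The 6 bp were those of the weaker of 2 summits at CG3032/CG4593, with a signal of 10.1. The stronger summit there, at 76.8, was assigned start sites 225 bp apart. At the edge of the rule, the 15 members with start sites 451 to 500 bp apart had signals of 55.9 to 661 (median 96.8), and the 14 summits at pairs 501 to 550 bp apart, just outside it, had 9.79 to 208 (median 76.3).

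**Figure D3:**
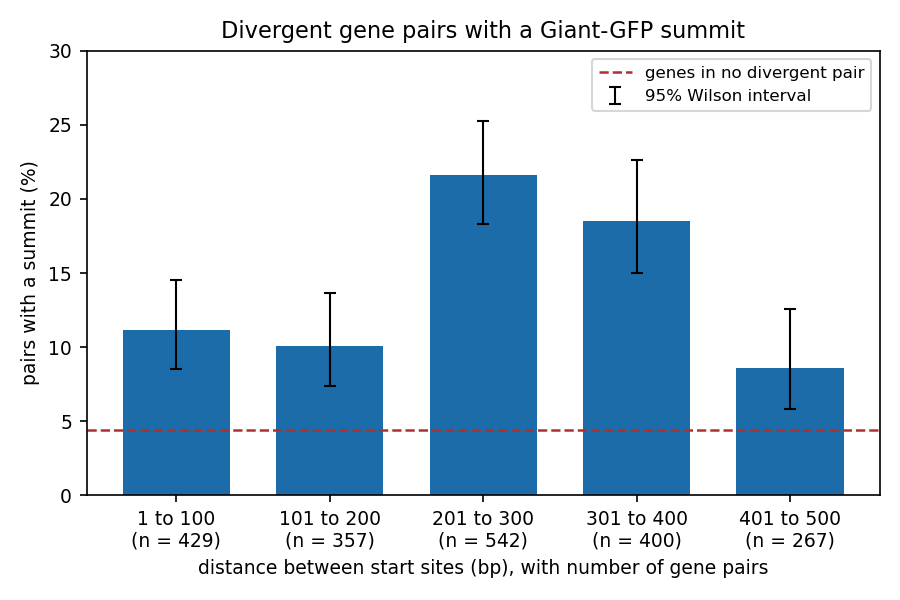
Share of divergent gene pairs with a Giant-GFP summit (vertical, %) by distance between the start sites (horizontal, bp). Bars are shares with 95% Wilson intervals over gene pairs, and the dashed line is the 4.41% of genes in no divergent pair; the bars for 201 to 300 bp (21.6%) and 301 to 400 bp (18.5%) are the tallest.

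On the X chromosome few divergent pairs carried a summit. There 26 of 289 pairs (9.0%, 6.21 to 12.9) did, against 272 of 1706 on the other arms (15.9%, 14.3 to 17.8), a difference of -6.95 percentage points (-10.3 to -2.75). Genes in no divergent pair did not follow this order, with 5.4% on X and 4.22% on the other arms, a difference of 1.18 points (0.0829 to 2.45). Of the members 9.29% were on X, and of the other promoter summits 20.4%, a difference of -11.1 points (-15.8 to -5.91). The other members were divided into 63 on 2L, 46 on 2R, 64 on 3L and 81 on 3R, and none was on chromosome 4. The labels do not give the sex of the embryos.

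In the replicates' ranked lists, regions at pairs with no summit had higher median signals than regions at other genes with no summit. Within 250 bp of the midpoint, 59.9% of the 1697 pairs with no summit had a region in replicate 1's ranked list, with a median signal of 13.9 (13.4 to 14.6). For other genes with no summit, measured around their start site, the share was 54.0% and the median 12.1 (11.97 to 12.31). In replicate 2 the shares were 60.5% and 59.9%, and the medians were 18.0 (17.0 to 18.5) and 16.2 (15.99 to 16.47). Pairs with a summit had medians of 49.03 and 70.87 in replicates 1 and 2. The summits were called from these same replicates, so higher medians there follow from how the pairs were divided.

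In 12 gene pairs the authors' pooled list held 2 summits. They were Fur1/Vps33B, Gmd/CG3792, wmd/levy, Bdp1/CG6565, CG12093/Atg2, Xe7/Atg17, AP-2alpha/ebi, gb/CG5815, CG3032/CG4593, CG4572/CG4686, snRNP-U1-C/gukh and Pex23/SCCRO4. The stronger summit had 60.3 to 202 and lay between the start sites in all 12. The weaker had 2.97 to 107, lay 199 to 222 bp away, and was on the higher-coordinate side in all 12 pairs. At Fur1/Vps33B the summits had 202 and 107, and at Gmd/CG3792 197 and 12.5. All 10 members with a pooled signal under 50 were such weaker summits. Their replicate values can come from the stronger neighbour's region, which overlaps the same peak. With 1 summit kept per group, 268 members remained.

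The genes at members covered several basic cell functions. The members' 536 genes made up 14.0% of the 3815 genes with a divergent partner, and the function lists below are read against that share (13.0 to 15.2). No set test was made, and the lists were chosen with earlier results known and corrected after their values were seen. Among cytosolic ribosomal protein genes 37 of 93 had a divergent partner, and 16 of these (43.2%, 28.7 to 59.1) had a member. The strongest were RpS27/Nup37 at 313, RpL34b/CG8132 at 250 and Ripalpha/RpL7 at 195, each overlapping a peak of both replicates. Of the 16 members in this list, 8 overlapped a peak of both replicates, beside 55.4% of all members. Ribosomal protein genes with no divergent partner also had a summit often, in 18 of 56 cases (32.1%, beside 4.41% of all such genes). Mitochondrial ribosomal protein genes were mostly arranged in divergent pairs, 54 of 75, and 8 of the 54 had a member (14.8%, 7.70 to 26.6). Those 8 had a median signal of 235 and included 3 of the 7 strongest members, at mRpS10, mRpS23 and mRpL23.

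Insulator and interband protein genes had a member at 4 of 9 divergent genes (44.4%, 18.9 to 73.3). These were Chro at 695, Cp190, the gene of a common insulator cofactor, at 225, pzg at 181 and Dref at 65.9, the last sharing its promoter with RpL13. Dref was named after its value was seen, and of the 4 it alone did not overlap a peak of both replicates. Polycomb and trithorax group genes had a member at 7 of 21 (33.3%, 17.2 to 54.6), led by brm/Arl1 at 395, E(z)/Cnep1r2 at 179 and Su(z)12/Pfdn6 at 126. Only these 3 of the 7 members overlapped a peak of both replicates. E(z) and Su(z)12 encode subunits of the histone methyltransferase complex PRC2. General transcription genes had a member at 12 of 63 (19.0%, 11.2 to 30.4), with CG11247/Polr2H at 210 and elm/MED27 at 183 after Chro/Ssl1. Genes of tRNA and rRNA modification had one at 7 of 39 (17.9%, 8.98 to 32.7), with Tcs5, Elp5 and Dus2 the strongest at 788, 453 and 206. DNA repair genes had one at 3 of 20 (15.0%, 5.24 to 36.0), led by TH1/mei-41, with the gene of the fly ATR checkpoint kinase, at 213.

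Apart from the cytosolic ribosomal, insulator and interband, and Polycomb and trithorax lists, whose intervals lie above 14.0%, the interval of every list includes that share. Aminoacyl-tRNA synthetase and translation factor genes had 8 of 44 (18.2%), led by GluProRS/AP-1sigma at 202. Nuclear pore genes had 3 of 18, heat shock and chaperonin genes 2 of 15, splicing factor genes 4 of 31 and respiratory chain genes 4 of 41. Genes of DNA replication and the cell cycle had 2 of 31 (6.45%, 1.79 to 20.7), orb/Cdc16 at 98.8 and dup/SRPK at 87.1. Proteasome genes had 1 of 24, Rpn3 at 68.1. Anterior-posterior and dorsoventral patterning genes, among which Giant's known targets lie, had a divergent partner in 1 of 76 cases. That gene had no member, and 1 gene gives no usable share (interval 0 to 79.3%). Of the other 75 genes, 6 had a summit at a promoter of another kind (8%, beside 4.41% of all genes in no divergent pair). Chemoreceptor (16 genes with a divergent partner) and cuticle protein genes (3) had no member. Among insulator and interband genes with no divergent partner, 2 of 12 (16.7%) had a summit. For Polycomb and trithorax genes this was 2 of 22 (9.09%), for tRNA and rRNA modification 3 of 12 and for heat shock and chaperonin genes 4 of 29 (13.8%). For proteasome, splicing factor and nuclear pore genes it was 0 of 24, 0 of 14 and 0 of 9. Whether a high share in a list was particular to divergent promoters was not tested.

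**Figure D4:**
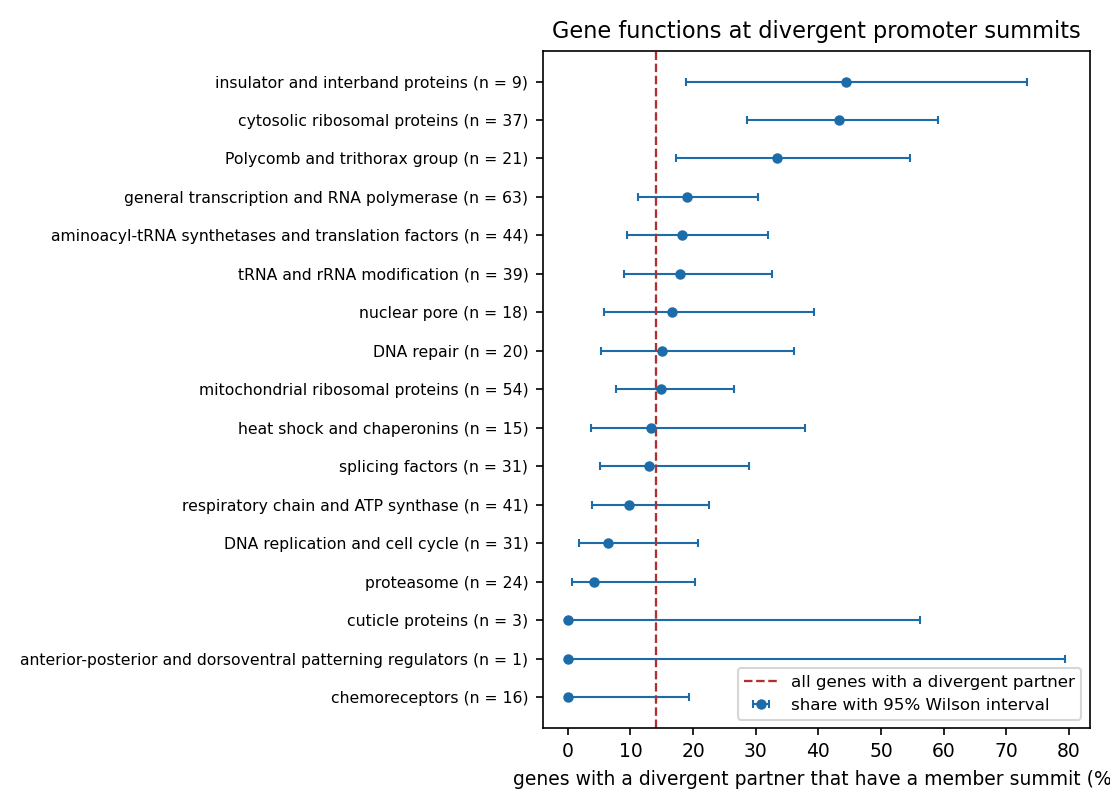
Share of genes with a divergent partner that had a member (horizontal, %), for 17 lists of gene functions with the number of divergent genes in each. Points are shares with 95% Wilson intervals, and the dashed line marks the 14.0% of all such genes; only the insulator and interband, cytosolic ribosomal protein and Polycomb and trithorax intervals lie wholly above it.

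Sequence played no part in the rule for members, but the rule placed every summit near start sites. The flanks lay away from those start sites, on the minus-strand gene's side, so this was a test of promoter windows against windows not chosen at promoters. It cannot separate motifs tied to Giant-GFP from motifs common at divergent promoters. The motifs were chosen with earlier results of these data known. CAGTG and the longer words with it or its complement, ACAGTGG as well as CACTGAG and CAGTGTA, came from a search of these same peaks, so a call of one of them is not independent evidence. In a window of 100 bp either side of each summit, 18 motifs were sought on both strands and compared with the window 1000 bp away at lower coordinates by the exact McNemar test (two-sided, with p-values adjusted by the Benjamini-Hochberg method over the 18). At an adjusted p under 0.05, 8 motifs were more frequent at the summits and 0 were less frequent, and 10 had an unadjusted p below the same value. The flanks had a mean GC content of 47.9% and the summits 34.8%. The part of this difference in the results was not tested.

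TATAAA, the letters of the TATA box, stood in 123 summit windows (43.9%) and 43 flanks (15.4%; exact McNemar adjusted p = 2.1e-11). The strongest members with it in the tested window were Tcs5/CHMP2B, Chro/Ssl1 and mRpL23/CG9004. CGATA stood in 117 (41.8%) and 60 (21.4%; exact McNemar adjusted p = 1.15e-06). The palindrome TATCGATA, which contains CGATA, stood in 26 (9.29%) and 1 (0.357%; exact McNemar adjusted p = 2.5e-06). Its strongest members were Atat/Shc at 560, fws/Lamtor3 at 423 and RpL41/NaCP60E at 167. Members with TATCGATA had a median signal of 79.7 and members without it 118. CATCCCTA stood in 11 summit windows and 0 flanks (exact McNemar adjusted p = 0.00439), at Atat/Shc, CG1105/CG1965 at 192 and CG3744/CG11089 at 143 among others. AACAGCTG (17 against 4 windows) and GTATTTT (35 against 16) both had an exact McNemar adjusted p of 0.0238. Counting only matches in the tested windows, the former was led by RpS27/Nup37, CG7183/CG7988 and Wdr37/koko at 250, and the latter by CG13390/CG17294, DUBAI/Tmem18 at 283 and Cp190/CG4338. CAGTGTA stood in 13 against 3 (exact McNemar adjusted p = 0.0479), led by tank/CG12194, Mnat9/CG1792 at 331 and CG7183/CG7988 at 260. Its call was lost in 9 of the 16 alternatives: the excess was 3.57 percentage points against this flank, 1.43 against the flank on the other side (exact McNemar adjusted p = 0.604) and 0 with windows of 50 bp either side. AACAGCTG and GTATTTT each lost their call in 7 alternatives and CATCCCTA in 4.

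The call of the Giant site depended on the flank and the window. TTACGTAA, the palindrome of many bZIP proteins, with at most 1 mismatch stood in 27 summit windows (9.64%) and 18 flanks (6.43%; exact McNemar adjusted p = 0.286), an excess of 3.21 percentage points that did not pass the test. Against the flank on the higher-coordinate side the excess was 7.14 points (exact McNemar adjusted p = 0.00211) and with windows of 200 bp either side 7.86 points (exact McNemar adjusted p = 0.00861). In the members from replicate 2's own list it was 8.0 points (exact McNemar adjusted p = 0.0232), and in the other 13 alternatives it was not called. It stood in 10.2% of windows at unoccupied pairs and 12.9% of other promoter summits. The same letters in permuted order, TAACGTTA with at most 1 mismatch, stood in 36 summit windows and 18 flanks (exact McNemar adjusted p = 0.0395), a call lost in 7 of the 16 alternatives. Its strongest members were Atat/Shc, fws/Lamtor3 and Reps/l(2)gd1.

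A closer comparison was with divergent pairs that have no summit, both taken at the midpoint between the closest start sites of the gene pair. The 280 members lay in 268 gene pairs, so the 12 pairs with 2 summits entered the member side 2 times with the same window. The intervals below treat these windows as independent. TATAAA stood at 140 (50%) of member midpoints and 38.3% of 1697 unoccupied midpoints, a difference of 11.7 percentage points (Newcombe interval 5.43 to 17.9). CGATA stood at 38.2% and 48.5%, a difference of -10.3 points (-16.3 to -4.00), so it was less frequent where a summit was called. TATCGATA stood at 8.21% and 11.5% (-3.34 points, -6.46 to 0.735). GGTCACACT, the site of the promoter factor M1BP, stood at 2.14% and 6.36% (-4.22 points, -5.93 to -1.55). ACAGTGG stood at 5.36% and 2.06% (3.29 points, 1.07 to 6.64). The 17 members with it at the summit had a median signal of 202, against 109 in the others. ACAGTGG came from a search of these same peaks, so neither value is independent evidence. Its shorter core CAGTG stood at 45.4% of summits, and at 35.0% of the members' midpoints beside 31.8% of unoccupied midpoints (3.18 points, -2.63 to 9.33). Mean GC content was 32.4% at member midpoints and 34.6% at unoccupied ones. CATCCCTA, at 1.79% and 0.943%, had an interval that includes 0. So did the called motifs AACAGCTG at 7.5% and 8.49%, GTATTTT at 13.9% and 15.1%, and TAACGTTA at 13.9% and 12.9%. CAGTGTA, from the same search as ACAGTGG, stood at 2.86% and 1.30% (1.56 points, 0.0113 to 4.27). With the members' midpoints nearest the summit instead, the differences were 13.8 points for TATAAA and -12.4 points for CGATA. With the members' summit windows they were 5.63 points for TATAAA (-0.527 to 11.9), an interval that includes 0, and -6.71 points for CGATA (-12.8 to -0.399).

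Against other promoter summits, the members had more of the DRE letters and fewer GA repeats. TATCGATA stood in 9.29% and 3.83% (5.46 points, 1.91 to 9.66) and CGATA in 41.8% and 29.2% (12.6 points, 5.56 to 19.5). TATAAA was also more frequent at the members, by 8.44 points (1.31 to 15.6), as were TAACGTTA by 4.99 points (0.631 to 9.88) and CATCCCTA by 3.32 points (1.25 to 6.32). GAGAG, the core of the GAGA factor's site, stood in 12.1% and 26.01% (-13.9 points, -19.1 to -8.18). ACAGTGG stood in 6.07% and 11.9% (-5.82 points, -9.69 to -1.54) and CACTGAG in 2.50% and 6.65% (-4.15 points, -7.00 to -0.971). Of the called motifs, 65 members held none, 95 held 1 and 120 held more than 1.

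**Figure D5:**
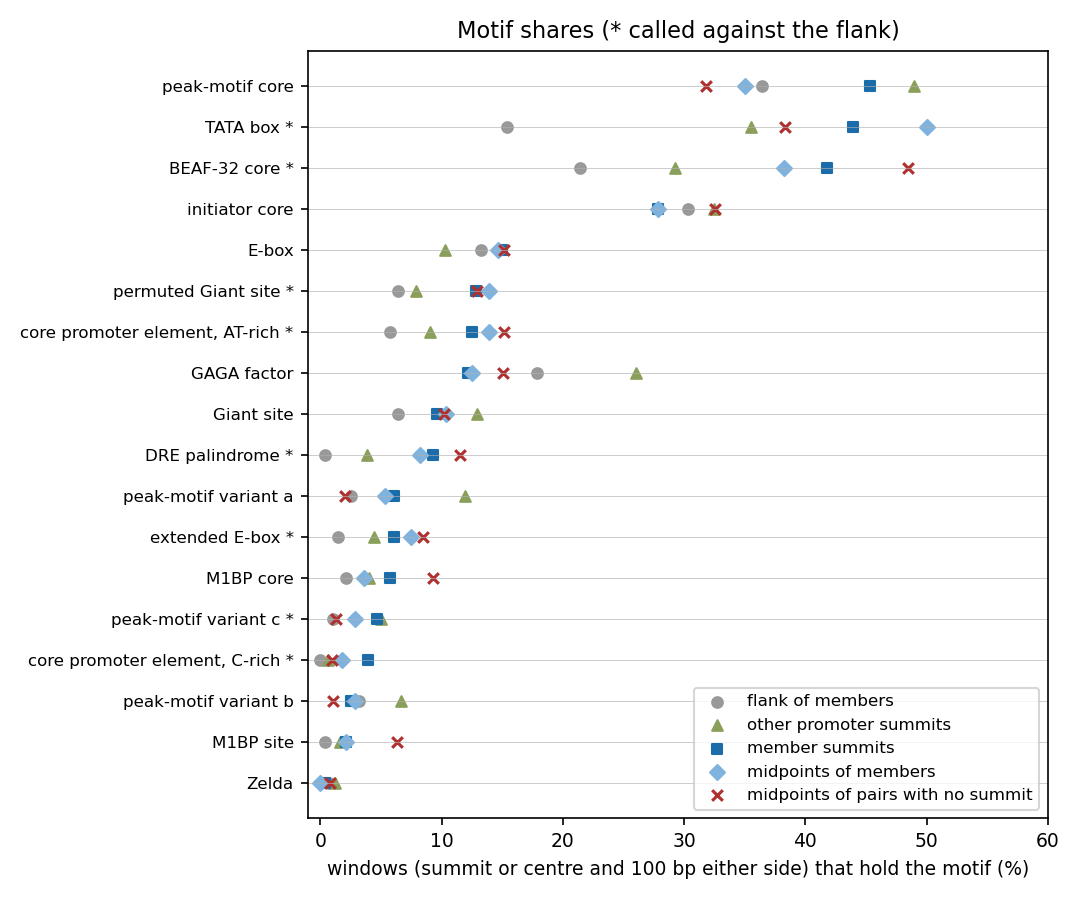
Share of windows (100 bp either side of the centre) that hold each of 18 motifs (horizontal, %), at member summits, their flanks, midpoints of the members' closest start sites, midpoints of pairs with no summit and other promoter summits. An asterisk marks the 8 motifs called against the flank; DRE palindrome is TATCGATA, the BEAF-32 core is CGATA, the TATA box is TATAAA, the peak-motif core is CAGTG, variant a is ACAGTGG, variant b is CACTGAG, variant c is CAGTGTA, the M1BP site is GGTCACACT and its core is GTCACAC, the E-box is CAGCTG, the initiator core is TCAGT, the Zelda site is CAGGTAG, and the AT-rich element is GTATTTT.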

How the data were processed

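Chromatin immunoprecipitation with an antibody against GFP was sequenced in 2 biological replicates of whole gt-eGFP embryos. The authors called peaks on assembly dm6 against a control, per the labels and the deposited text files. Neither aligner nor caller is given in the sources used here. The signal in the deposited lists is the authors' peak value, compared only within a list. Of 8 deposited peak lists 6 were used, and 2 ranked lists of the series were not. The replicates' values are the highest signal among overlapping regions of each replicate's ranked list, and overlap means at least 1 bp.

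Start sites were those of protein-coding transcripts in Ensembl release 115 on Release 6, and sequences came from RefSeq. A summit with several qualifying pairs was assigned to the pair of start sites whose midpoint lay nearest to it; gene pairs counted over the genome were placed by their closest start sites. Scripts ran in Python 3.11.15 with numpy 2.4.6, pandas 2.3.3, scipy 1.17.1 and matplotlib 3.10.9, and were tested on simulated data. Shares have 95% Wilson intervals, differences Newcombe intervals and medians exact order-statistic intervals. Motifs were compared with flanks by the exact McNemar test. Its p-values and the intervals of motif differences treat summits as independent, although some share a gene pair.

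Gene pairs are named from the 20 strongest members, the 3 strongest in each function list and with each called motif, the narrowest and widest pairs and pairs with several summits; others are said to be chosen after their values were seen. Of the strongest 20, 1 gene pair is not reported here. The 3 strongest members without each called motif, also in the rule, are among the strongest 20. The members, lists and tests were chosen with earlier results of these data known. Alternatives were the conservative list, each replicate's own list, stronger peaks, 1 summit per group within 300 bp, other distances, start sites, overlaps, windows and flanks. After the data were seen, counts by locus, without the pre-mod(mdg4) annotation, the comparison with unoccupied midpoints, and start sites chosen without the summit were added.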

Additional observations from a re-analysis of the deposited data

How the results depend on the processing

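The conservative list and 1 summit per group within 300 bp kept every summary value close to the one reported. With each replicate left out in turn, the number of members was 200 to 220, the share between the start sites 84.5% to 89.5%, the share of gene pairs with a summit 10.5% to 11.3% and the median signal 57.8 to 81.8, on each list's own scale. These members come from the other replicate's own list, so their share overlapping both replicates, 68.6% to 81.5%, measures overlap with the replicate left out and is not comparable with the 55.4% reported. With pooled peaks above the median signal there were 180 members, 78.3% in both replicates, 10.4% of pairs with a summit, a median signal of 148 and 4 called motifs. With start sites at most 250 bp apart there were 128 members (16.5% of promoter summits), a density ratio of 3.36, 63.3% between the start sites, 13.3% of pairs and 3 motifs; at most 1000 bp apart gave 39.7% of promoter summits, 94.2% between the start sites and 12.04% of pairs. A summit at most 250 bp from a start site gave 31.2%, a ratio of 7.12, 94.4% between, 11.2% of pairs and 4 motifs; at most 1000 bp gave 31.7%, 3.37 and 82.6%. Partner start sites of every biotype gave 13.3% of pairs and 5 motifs, and 1 start site per gene gave 77.4% between the start sites and 4 motifs. The closest start sites of the gene pair, chosen without the summit, gave 72.9% between. Motif windows of 50 bp gave 3 called motifs and windows of 200 bp gave 13. Without the pre-mod(mdg4) annotation 14.1% of pairs had a summit. The cause of these shifts was not tested, except that the settings themselves change which summits and pairs are counted. TATAAA and CGATA stayed called under all 16 alternatives of the motif test and TATCGATA under 15. CATCCCTA lost its call in 4, AACAGCTG, GTATTTT and TAACGTTA in 7 each and CAGTGTA in 9, while TTACGTAA gained one in 3, CAGTG in 5 and ACAGTGG in 4. None of the 8 called differences changed sign, and 5 of the 10 uncalled ones did in some setting, such as CAGTG from 8.93 to -4.29 points with windows centred on the midpoint. No paired analysis was possible because the series has 1 group. Depth is unknown, so a pair without a summit may have signal below the authors' threshold.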

Other observations

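Short words at the summits were compared with those at midpoints of divergent pairs that hold no summit, as a description chosen after the values were seen and without a test. The largest excesses were AT-rich, led by AAATTAA, in 34.6% of member windows, 22.4% of unoccupied midpoints 6.43% of the members' flanks and 23.8% of other promoter summits. Among words with 3 or more G or C, AGGGATG, the complement of the first letters of CATCCCTA, stood in 23 members (8.21%) against 2.24%, 1.07% and 3.43% in the same order. CACTGTA stood in 6.79% of members, 1.71% of unoccupied midpoints, 0.714% of flanks and 6.45% of other promoter summits. CTACGCC stood in 14 members (5.0%), 7 of 1697 unoccupied midpoints, 2.14% of flanks and 2.82% of other promoter summits. Against unoccupied midpoints the DRE words went the other way, with TCGATAA in 28 of 280 members and 15.6% of those midpoints, and ATCGATA in 17.1% and 22.6%. Both words were rarer in flanks (2.5% and 3.21%) and in other promoter summits (3.43% and 8.06%) than in members. These windows centre on the summit in members and on the midpoint of the closest start sites in unoccupied pairs.

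The summits meeting the rule with the most gene pairs lay at the pre-mod(mdg4) genes, a trans-spliced locus with many annotated short genes, and 1 summit there met it with 21 pairs.

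The data are peak lists of 1 group with 2 replicates. No embryos without the fusion, no read counts and no input values were analysed here, so a peak's height cannot be set against background. Whole embryos of 0 to 18 h mix stages and tissues. Replicate lists differ in scale. Motif matches and gene functions describe the members and were not linked to Giant's function.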
